A study of Mus musculus with 6 samples.

Results

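Interferon and viral RNA sensing genes were followed in the mouse pancreatic duct line mPAC L20, measured on 6 Affymetrix arrays. The set holds 10 genes of the 18193 that a probe set with 1 gene symbol names: Trim25, Irgm1, Usp18, Psmb8, Irf7, Irf9, Stat2, Ifih1, Ddx58 and Ifit1. They were chosen by name, with earlier results of these data known, so their shares beside all genes are descriptive. The brightest probe set of a gene, by mean over the 6 arrays, stands for it. All 10 were measured, 6 by 1 probe set and 4 by several, 16 probe sets in all.

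Every culture carried 2 adenoviruses, each at a multiplicity of infection of 40. The first stayed on 250000 seeded cells for 4 h and carried the hairpin. In 3 cultures its sequence was scrambled (shControl), and in 3 it targeted the transcription factor Atoh8 (shAtoh8). The second was added for 1.5 h and expressed Neurog3, which starts endocrine differentiation in the pancreas, and culture went on for 44 to 46 h. Replicates 1, 2 and 3 were independent experiments per the labels, and each group had 1 array of each number. The labels state no pairing of arrays between the groups. It was inferred from the values, and comparisons within replicate numbers or with the number as a block rest on it. No array came from cells without virus, so levels before infection were not measured. The Atoh8 virus was made for the study in HEK293 cells and the control virus was supplied by another laboratory, per the labels, so the target of the hairpin and the virus preparation cannot be told apart.

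Cells detect viral RNA in the cytoplasm with the helicases RIG-I, encoded by Ddx58, and MDA5, encoded by Ifih1. Both signal through the adaptor MAVS to induce type I interferon. Interferon at its receptor activates STAT proteins, and STAT2 with IRF9 is part of the complex ISGF3, which binds interferon-stimulated response elements in front of antiviral genes. Epithelial cells, duct cells among them, carry this system.

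The promoters of the members were searched for what the choice by name did not use. A window from 250 bases before to 50 after each start site (RefSeq, GRCm38.p6) was given for 9 of the 10 genes. The core letters of the response element were taken as GAAANNGAA, which reads TTCNNTTTC on the opposite strand. Of the 32851 promoter windows of that length, 8.56% held a match on either strand, and 6 of the 10 windows of the members did (Irf9 has 2 windows). Stretches around the matches are shown for the 6 genes that hold one, since they place the letters relative to the start. Bases in capitals are the matches, and each line runs 5′ to 3′ on the gene's strand.
Trim25 (chr11:88999359-88999422, plus strand): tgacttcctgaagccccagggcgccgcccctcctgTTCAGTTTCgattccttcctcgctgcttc
Irgm1 (chr11:48871401-48871485, minus strand): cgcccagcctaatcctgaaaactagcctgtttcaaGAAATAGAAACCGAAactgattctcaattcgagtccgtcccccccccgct
Ifih1 (chr2:62646324-62646402, minus strand): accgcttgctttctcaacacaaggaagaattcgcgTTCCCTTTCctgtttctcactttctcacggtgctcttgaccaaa
Stat2 (chr10:128270248-128270320, plus strand): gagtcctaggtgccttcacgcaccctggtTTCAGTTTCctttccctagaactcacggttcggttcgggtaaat
Ddx58 (chr4:40239806-40239857, minus strand): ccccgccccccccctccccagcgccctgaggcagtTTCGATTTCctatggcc
Ifit1 (chr19:34640745-34640848, plus strand): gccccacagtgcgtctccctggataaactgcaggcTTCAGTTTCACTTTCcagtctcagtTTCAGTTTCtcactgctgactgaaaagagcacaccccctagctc

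The match of Trim25 began 9 bases before the start site and that of Ddx58 3 bases after it. Irgm1 had 2 overlapping matches, 30 and 24 bases before the start. Ifit1 had 3, at 109, 103 and 84 bases before it, the first pair overlapping. The match of Stat2 lay 221 bases upstream. Ifih1 had a second match 32 bases after the start, which is not printed. A core of the gamma-activated sequence, TTCNNNGAA, stood in 8.30% of all windows and in 1 member, Psmb8, 97 bases upstream. These letters occur in the sequence, and binding was not measured.

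**Figure D1:**
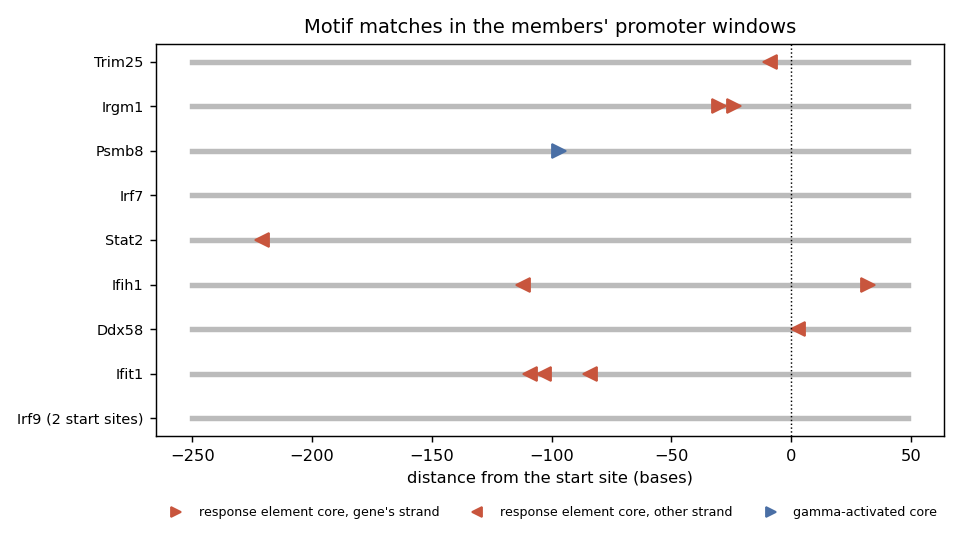
Positions of motif matches in the promoter windows of 9 members, as distance from the start site in bases; each triangle is the first base of a match, pointing right on the gene's strand and left on the opposite strand. Of the red matches (response element core), 6 genes hold at least 1 and Ifit1 holds 3, while Irf7 and Irf9 have none of either motif in these windows.

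Atoh8, the hairpin's target, read 8.75, 8.29 and 7.52 (log2 signal) in replicates 1, 2 and 3 of shControl and 7.83, 7.90 and 7.37 in shAtoh8. It was lower in every pair, the groups overlapped, and the 1.40-fold difference did not pass limma (adjusted p = 0.573, and 0.157 with the block). The 2 probe sets of Neurog3 went opposite ways, each with overlapping groups. One gave -0.57 ± 0.48 (SE), lower in every pair (limma adjusted p = 0.706, and 0.0330 with the block). The other gave 0.18 ± 0.17, higher in every pair (0.751 and 0.400). Whether either reads the transcript of the virus was not tested. Array medians lay between 5.49 and 5.56. On the shAtoh8 array of replicate 2 the hybridisation spikes were dimmest, at 9.89 (10.2 to 10.5 on the rest), and actin differed most between its 3' and 5' ends, by 0.354 (0.107 to 0.202 on the rest). With that array left out, 0 members passed limma after adjustment, where 0.643% of all genes did. At an unadjusted p under 0.05 in that limma fit the count was 5 members, and the share of all genes was not counted. Of 8 measured duct epithelial markers 1 passed with the block, Epcam, which was lower, and the keratins Krt8, Krt18 and Krt19 were bright on every array. The mean of the duct list was 10.57 to 10.63 in shControl and 10.39 to 10.50 in shAtoh8, without overlap, and Cftr was below the array median throughout. The mean of 8 immune cell markers was 6.00 to 6.04 in shControl and 5.95 to 6.01 in shAtoh8, and 4 of them, Ptprc among them, were below the median on all 6 arrays. Cd14 was bright, with means of 11.70 in shControl and 11.33 in shAtoh8. It was lower in every pair, as was Cd68 (6.81 and 6.44). Ptprc (3.59 and 3.70) and Siglech (5.24 and 5.30) were higher in every pair, and the remaining immune markers were mixed. The acinar list lay higher in shAtoh8 (5.25 to 5.29, against 5.07 to 5.14), with 4 of 5 markers below the median. Fibroblast (4.87 to 4.91 against 4.91 to 4.94) and endothelial lists (4.39 to 4.56 against 4.40 to 4.51) had 4 of 6 and 3 of 4 below it. Outside the duct list no marker passed limma, and the part of these markers in the results that follow was not tested.

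The first comparison set shAtoh8 against shControl for each member. Trim25, Irgm1 and Usp18 read higher in shAtoh8, by 1.43-fold, 1.43-fold and 1.51-fold, and Psmb8 read lower by 1.49-fold. None of the 10 passed limma at an adjusted p under 0.05 in the fit that treats the arrays as unpaired, where 1.15% of all genes passed. At an unadjusted p under 0.05 in limma 5 passed (all genes, 17.5%), and at an adjusted p under 0.1 the count was 3 (all genes, 3.80%). With the replicate number as a block in limma, 4 of the 10 passed at an adjusted p under 0.05, against 4.67% of all genes. Trim25, Irgm1 and Usp18 rose in that fit (higher calls were 1.92% of all genes), and Psmb8 fell (lower calls, 2.75%). In RNA from whole cultures, fewer cells with a transcript and less of it per cell cannot be told apart. The block calls varied with the replicate numbers included. With the pair of replicate 1, 2 or 3 left out, 0, 2 (Irgm1 and Psmb8) and 0 members passed. An unadjusted p under 0.05 in limma was reached by 6, 6 and 5. The share of all genes at that unadjusted threshold was not counted in these fits, so those counts have no background beside them. These fits were added once the data had been seen. After adjustment 0 of all genes passed without the pair of replicate 1 or of replicate 3, and 966 (5.31%) without that of replicate 2. The log2 fold changes of Irgm1 (0.45 to 0.55) and Psmb8 (-0.60 to -0.54) stayed close to their full values in these fits.

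The directions were mixed. Of the 10, 5 had a positive and 5 a negative log2 fold change, with a median of 0.02 beside 0.01 over all genes. Their median absolute log2 change was 0.32, beside 0.11 over all genes. The groups did not overlap for 5 members (4 higher, 1 lower), and over all genes this held for 24.0%. All 3 replicate pairs differed in the same direction for 8 members, beside 45.6% of all genes.

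**Figure D2:**
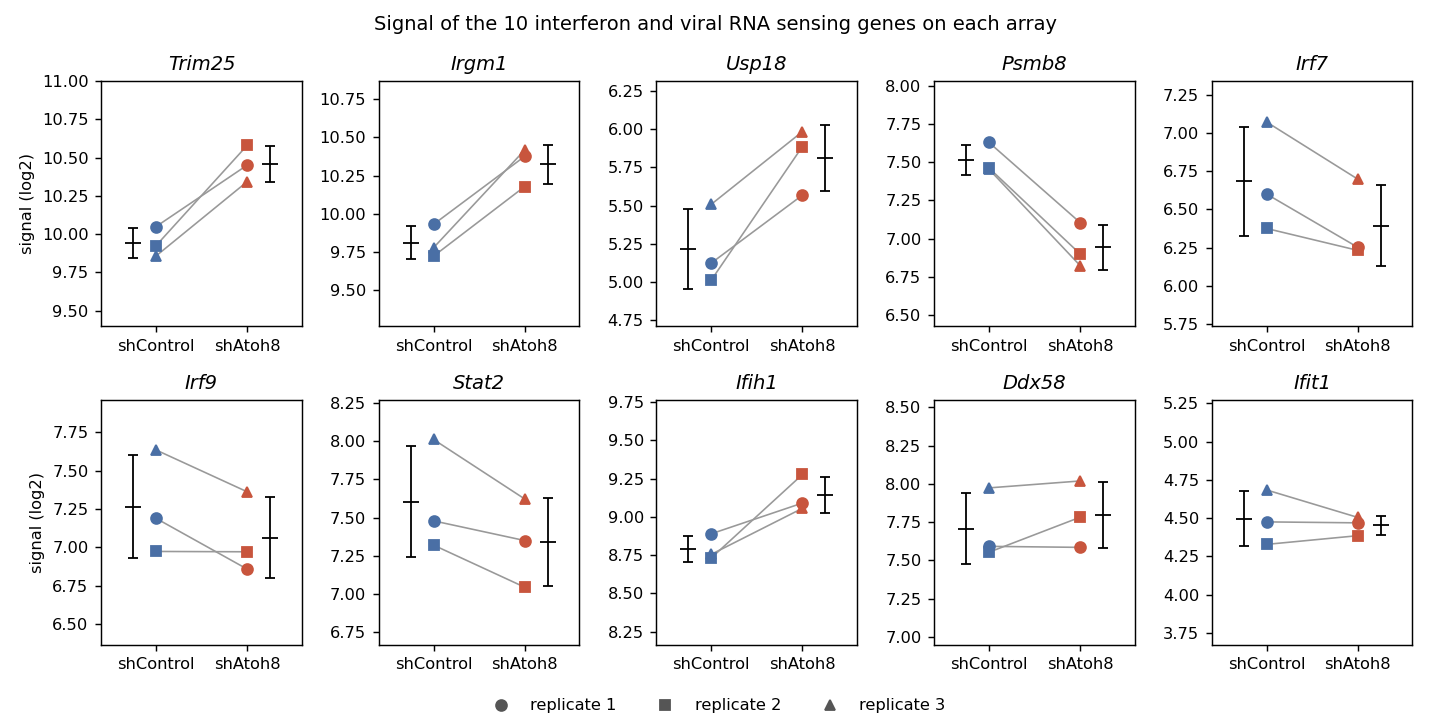
Log2 signal of the 10 genes on each array (symbol shape is the replicate number, grey lines join the arrays of a replicate number, black bars are mean and SD, n = 3); all panels span the same range of log2 units. In the panels of Trim25, Irgm1, Usp18, Psmb8 and Ifih1 the groups do not overlap. Replicate 3 is the highest in each group in those of Usp18, Irf7, Irf9, Stat2, Ddx58 and Ifit1.

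The RNA sensors and the ligase that acts on them came first. Trim25 is a ubiquitin ligase that modifies RIG-I. In replicates 1, 2 and 3 its log2 signal was 10.05, 9.92 and 9.86 with shControl and 10.45, 10.58 and 10.34 with shAtoh8, and values below follow the same order. All 3 shAtoh8 arrays lay above all 3 shControl arrays. The mean was 9.94 ± 0.10 in shControl and 10.46 ± 0.12 in shAtoh8 (SD, n = 3 per group). The log2 fold change was 0.51 ± 0.10 (SE), with a limma adjusted p of 0.0675 without the block and 0.0416 with it. A second probe set of Trim25 gave 0.53 ± 0.10 (0.0666 and 0.0448), and the remaining one, with a lower signal, gave 0.36 ± 0.14 (0.334 and 0.149). On that last set the groups overlapped. The second carries the suffix that marks probes shared by several transcripts.

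Ifih1 read 8.89, 8.73 and 8.76 in shControl and 9.09, 9.28 and 9.06 in shAtoh8. Here too the groups did not overlap, and the pairs differed by 0.20, 0.55 and 0.30. The log2 fold change of 0.35 ± 0.09 (SE) did not pass limma without the block (adjusted p = 0.154) or with it (0.125).

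Ddx58 read 7.59, 7.55 and 7.97 in shControl and 7.59, 7.78 and 8.02 in shAtoh8. The groups overlapped, and the log2 fold change was 0.09 ± 0.15 (SE; limma adjusted p = 0.886, and 0.692 with the block). Its other 2 probe sets gave -0.10 ± 0.11 and 0.09 ± 0.16, so the probe sets differed in sign. The difference of Ddx58 turned to -0.023 without shAtoh8 replicate 3.

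Next were the transcription factors. Stat2 and Irf9 are subunits of ISGF3, and Irf7 drives the interferon genes themselves. Stat2 read 7.48, 7.32 and 8.01 in shControl and 7.35, 7.04 and 7.62 in shAtoh8. Irf9 read 7.19, 6.97 and 7.64 in shControl and 6.86, 6.97 and 7.36 in shAtoh8. Irf7 read 6.60, 6.38 and 7.07 in shControl and 6.25, 6.23 and 6.70 in shAtoh8. In all 3 genes the groups overlapped, and replicate 3 was the highest array of each group.

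Within replicate numbers the 3 factors were lower in shAtoh8 in every pair. The differences were -0.13, -0.28 and -0.39 for Stat2, -0.33, -0.0022 and -0.27 for Irf9, and -0.35, -0.14 and -0.37 for Irf7. The log2 fold changes were -0.26 ± 0.21 (SE) for Stat2, -0.20 ± 0.20 for Irf9 and -0.29 ± 0.20 for Irf7. None passed limma, with adjusted p-values of 0.689, 0.759 and 0.634 without the block and 0.186, 0.354 and 0.154 with it. The other probe set of Stat2 gave -0.18 ± 0.18, lower in every pair as well. Without shControl replicate 3 the log2 fold changes shrank to -0.061 for Stat2, -0.017 for Irf9 and -0.094 for Irf7.

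**Figure D3:**
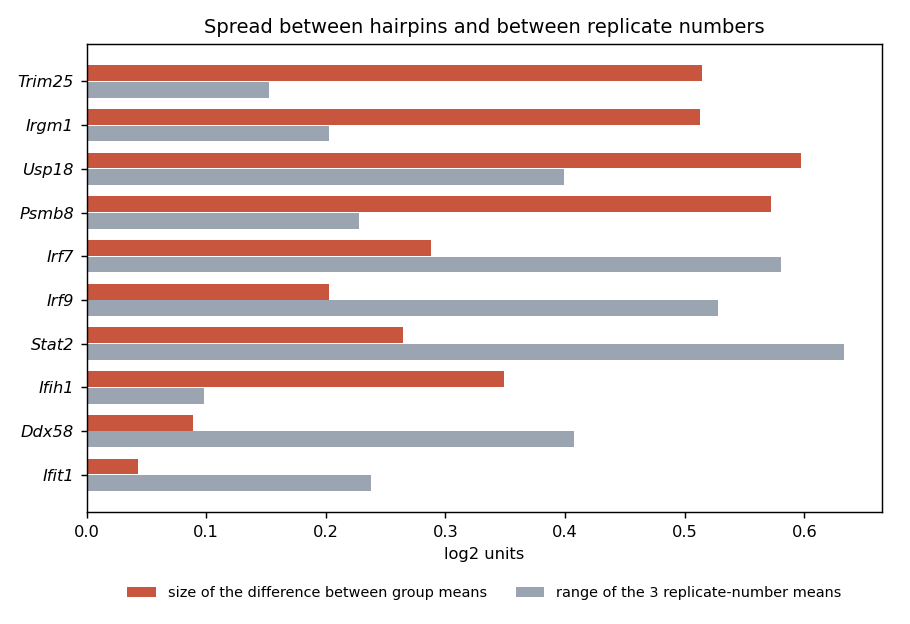
For each of the 10 genes, the size of the difference between the shAtoh8 and shControl means (red) and the range of the 3 means of replicate numbers (grey), both in log2 units. The grey bar is the longer for Irf7, Irf9, Stat2, Ddx58 and Ifit1, and the red bar for the other 5.

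These factors differed more between replicate numbers than between hairpins. The mean of the 2 arrays of a replicate number spanned 0.63 (log2) for Stat2, 0.58 for Irf7 and 0.53 for Irf9, against group differences of 0.26, 0.29 and 0.20 in size. For Trim25 the same span was 0.15, for Irgm1 0.20, for Psmb8 0.23 and for Ifih1 0.10, each below the group difference. The span exceeded the group difference for 5 of the 10 members, beside 67.1% of all genes. Replicate 3 had the highest mean for 6 of the 10 members, beside 32.5% of all genes.

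The last members were the effectors and the feedback regulator. Irgm1, an interferon-inducible GTPase that acts on membranes around intracellular pathogens, read 9.93, 9.72 and 9.78 in shControl and 10.38, 10.18 and 10.42 in shAtoh8. No shControl array reached any shAtoh8 array. The means were 9.81 ± 0.11 and 10.32 ± 0.13 (SD, n = 3 each), and the log2 fold change was 0.51 ± 0.10 (SE), with a limma adjusted p of 0.0741 without the block and 0.0396 with it.

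Usp18, a protease that removes the ubiquitin-like ISG15 from proteins and dampens signalling at the type I interferon receptor, read 5.12, 5.01 and 5.51 in shControl and 5.57, 5.89 and 5.98 in shAtoh8. The groups did not overlap, but the highest shControl array and the lowest shAtoh8 array lay close together. The signal was dim: 3 of the 6 arrays lay below their array median. The log2 fold change was 0.60 ± 0.16 (SE), with pair differences of 0.44, 0.87 and 0.48. The limma adjusted p was 0.152 without the block and 0.0484 with it.

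Psmb8, a catalytic subunit of the immunoproteasome, which cuts peptides for presentation, read 7.63, 7.46 and 7.45 in shControl and 7.11, 6.90 and 6.83 in shAtoh8. All shAtoh8 arrays lay below all shControl arrays, with pair differences of -0.52, -0.56 and -0.63. The means were 7.52 ± 0.10 and 6.94 ± 0.15 (SD, n = 3 each), and the log2 fold change was -0.57 ± 0.10 (SE), with a limma adjusted p of 0.0609 without the block and 0.0294 with it. A second probe set of Psmb8, of a class that can cross-hybridise and with a mean signal of 3.99, gave -0.023 ± 0.087. Taking the mean of its probe sets, the value of Psmb8 was -0.30.

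Ifit1, which binds foreign RNA by its cap, read 4.48, 4.33 and 4.68 in shControl and 4.47, 4.39 and 4.50 in shAtoh8. It lay below the array median on all 6 arrays, and its log2 fold change was -0.04 ± 0.11 (SE; limma adjusted p = 0.926, and 0.871 with the block). Its sign turned with array weights and without shControl replicate 3.

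**Figure D4:**
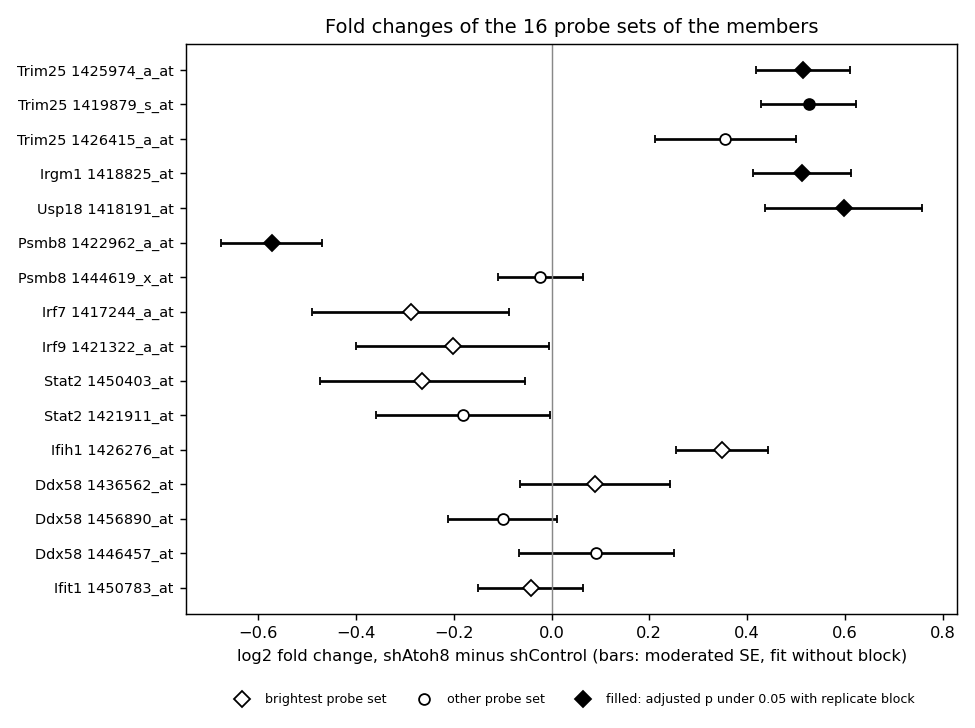
Log2 fold change (shAtoh8 minus shControl) of all 16 probe sets of the members, with limma's standard error from the fit without the block; diamonds are the brightest probe set of a gene, circles its others, and filled symbols passed with the replicate block. Filled symbols are the brightest sets of Trim25, Irgm1, Usp18 and Psmb8 and a second set of Trim25.

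Other genes of the pathway were taken from 5 lists, of which 113 of 128 entries were matched to a measured gene. These lists too were chosen with earlier results of these data known. With the block 5 of the 113 passed limma (4.42%), all lower, a share near that of all genes. In the fit without the block 1 passed, Tapbp, which loads peptides on MHC class I. Tapbp fell from 11.30 ± 0.06 to 10.28 ± 0.07 (SD, n = 3 per group). Its log2 fold change was -1.01 ± 0.08 (SE), with a limma adjusted p of 0.0104, and 0.0160 with the block. Its call was lost without shControl replicate 1 (0.0570), shControl replicate 2 (0.0784) or shAtoh8 replicate 1 (0.0520), where 3, 0 and 1 of all genes passed. The fold change of Tapbp stayed between -1.05 and -0.98 with any array left out. Of the genes called with the block, Sting1, Ifitm1 and Ifitm3 were chosen for naming after their values were seen.

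Of 14 measured interferon and receptor genes, 0 passed limma with or without the block, and 1 (7.14%) had an unadjusted p under 0.05, beside 17.5% of all genes. Ifnb1, the first interferon made on RNA sensing, read 4.66 ± 0.17 and 4.76 ± 0.04 (SD, n = 3 each; limma adjusted p = 0.794). It lay below the array median on all 6 arrays, as did Ifna2, Ifna4, Ifna5, Ifna11 and Ifng, so dim signal limits what these genes can show. The receptor chain Ifnar1 gave -0.04 ± 0.08 (SE), and its second probe set 0.25 ± 0.15. Ifnar2 gave -0.28 ± 0.10 (limma adjusted p = 0.257), and Il10rb, a chain of the type III receptor, -0.13 ± 0.08 (0.538). Their dimmer probe sets gave smaller values, -0.0029 ± 0.13 and -0.087 ± 0.11 for Ifnar2 and -0.0053 ± 0.094 for Il10rb.

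Of 16 measured JAK, STAT and IRF signalling genes, Socs3, a feedback inhibitor of JAK kinases, read -0.56 ± 0.12 (SE) with a limma adjusted p of 0.0939, and fell with the block (0.0470). Its other 2 probe sets, which do not stand for the gene in the counts, passed without the block as well, at -0.84 ± 0.12 (limma adjusted p = 0.0386) and -0.77 ± 0.11 (0.0367). The kinase Jak2 read -0.59 ± 0.13 (0.0981, and 0.0794 with the block). Jak1 (0.01 ± 0.09) and Tyk2 (0.18 ± 0.08), the kinases of the type I receptor, and Irf3 (0.18 ± 0.11), which RNA sensing activates, did not pass. Of the other 2 probe sets of Jak1, 1 had the opposite sign, and the dimmer probe set of Tyk2 gave 0.0052 ± 0.14.

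Among 25 measured sensors and adaptors none passed limma without the block, where 10 (40.0%) had an unadjusted p under 0.05, 8 of them higher. Over all genes that share was 17.5%, with 1586 higher and 1605 lower. Eif2ak2, the kinase PKR that binds double-stranded RNA, read 0.42 ± 0.10 (SE) higher with a limma adjusted p of 0.104, and Tank, a scaffold of the kinase TBK1, 0.37 ± 0.09 (0.111). Neither passed with the block (0.0622 and 0.0669). The other probe sets of Eif2ak2 gave 0.16 ± 0.09 and 0.05 ± 0.20, and that of Tank 0.0038 ± 0.11. Mavs, the adaptor of both helicases, gave 0.04 ± 0.08, and Dhx58, a further helicase of that family, -0.25 ± 0.11 (0.408). Dhx58 was dim, below the array median on all 6 arrays. Sting1, the adaptor of DNA sensing, read -0.61 ± 0.22 (0.262) and fell with the block (0.0384). The dimmer probe set of Sting1 gave -0.58 ± 0.21, its groups overlapped, and it did not pass limma with the block (adjusted p = 0.0545). Without shControl replicate 3 the brightest probe set of Sting1 gave -0.38.

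**Figure D5:**
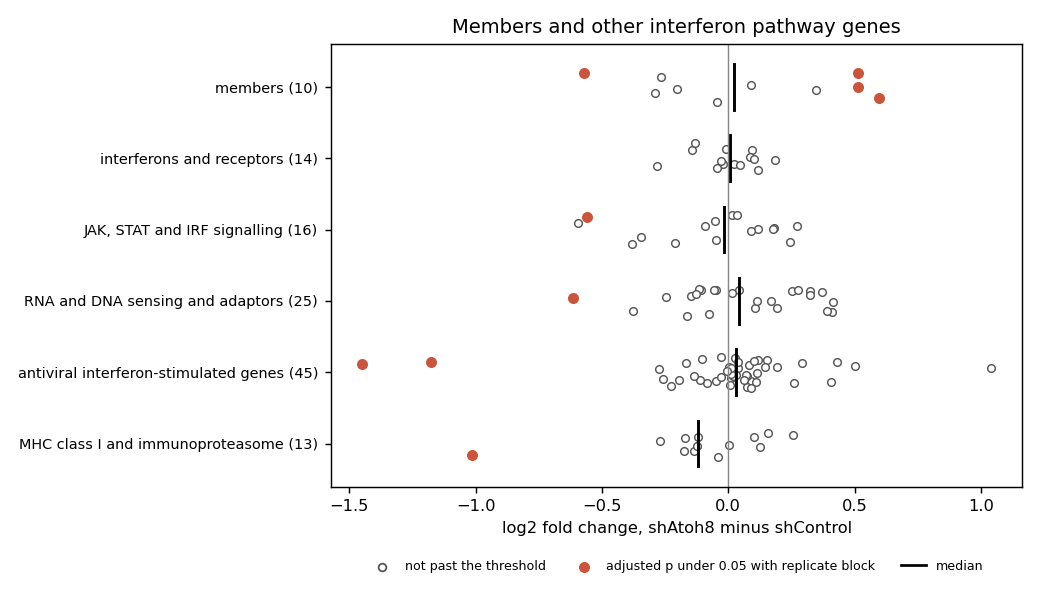
Log2 fold change of the 10 members and of the measured genes of 5 pathway lists (number measured in brackets, vertical position within a row has no meaning); red points passed limma with the replicate block and black bars are medians. The members hold 3 red points to the right and 1 to the left, and the red points of the lists all lie to the left, with medians from -0.12 to 0.04.

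The 45 measured antiviral genes had a median log2 fold change of 0.03, with 30 positive and 15 negative, and none passed limma without the block. At an unadjusted p under 0.05 in limma the count was 8 (17.8%), near the 17.5% of all genes. Several of the 45, Ifit3, Oas3, Oasl2, Cmpk2, Gbp2, Gbp3, Cxcl10 and Ccl5 among them, were below the array median on all 6 arrays. Parp14 read 0.50 ± 0.10 (SE) higher with a limma adjusted p of 0.0813, and 0.0533 with the block, but the gene's second and dimmer probe set gave -0.0035 ± 0.15. Pml, the scaffold of nuclear bodies, read 0.41 ± 0.09 (0.105, and 0.0696 with the block), with 1 of its other 2 probe sets opposite. The membrane proteins Ifitm1 and Ifitm3, which block virus entry, fell with the block. Ifitm1 read -1.45 ± 0.36 (limma adjusted p = 0.129, and 0.0189 with the block), with pair differences of -1.76, -1.01 and -1.58. Ifitm3 read -1.18 ± 0.35 (0.181, and 0.0218 with the block), with pair differences of -1.08, -0.91 and -1.54. Ifitm2, of the same family and brighter, had means of 11.85 in shControl and 11.80 in shAtoh8. Its log2 fold change was -0.05 ± 0.09 (limma adjusted p = 0.898, and 0.862 with the block).

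The 13 measured MHC class I and immunoproteasome genes, Tapbp included, had a median log2 fold change of -0.12. Psmb9, another immunoproteasome subunit, read 7.98 ± 0.27 in shControl and 7.81 ± 0.17 in shAtoh8 (SD, n = 3 each). It did not pass limma (adjusted p = 0.723, and 0.370 with the block). Erap1, which trims peptides in the endoplasmic reticulum, gave -0.27 ± 0.08 (SE; 0.185).

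Genes most like the 2 members with the largest SD over the arrays were found by the root mean square difference of profiles centred on each gene's mean over the 6 arrays. For Usp18 these were Diaph2 (0.081 log2 units), Bin3 (0.092) and Stx3 (0.11), and the closest member, Irgm1, ranked 381 among all other genes (0.23). For Psmb8 they were Uap1 (0.029), Zhx2 (0.030) and Fzd4 (0.061), and the closest member, Ifit1, ranked 6337 (0.31).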

How the data were processed

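RNA of 6 cultures was hybridised to Affymetrix arrays. The authors deposited 1 log2 signal for each probe set, made with RMA in affy per the submitters' processing notes. No version is stated (not given in the sources used here). RMA quantile-normalises arrays, so a shift of most genes would be removed. Precision is limited by how few arrays there are: an exact permutation test of 3 against 3 cannot go below 0.1. Of 45101 probe sets, 64 controls were left out and 45037 tested without a filter. The platform annotation gave 1 symbol to 34945, several to 932 and none to 9160; RefSeq (GRCm38.p6) changed 0 symbols.

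shAtoh8 was compared with shControl in limma 3.58.1 (R 4.3.3; lmFit, eBayes, 4 residual and 3.30 prior degrees of freedom; with the block 2 residual), two-sided, with Benjamini-Hochberg adjustment over 45037 probe sets and 0.05 as threshold. Each fold change has its moderated standard error. The script was checked on simulated arrays.

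The labels call the replicates independent experiments. Deviations from group means correlated at 0.407, 0.187 and 0.433 within numbers, and at -0.351 to 0.0292 between different numbers, so the numbers were taken to pair the arrays. The deviations of a group cancel out, so positive values within numbers push those between numbers down. Part of this contrast is therefore built in. At most 0.233% of probe sets held exactly the same value on any 2 arrays.

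Alternatives were the block, centring, renormalisation, a brightness filter, variance models, array weights, other probe set choices, a threshold of 0.1 and each array left out. The members and the lists were chosen with earlier results of these data known. All members were named; of each list, genes past the threshold, the 2 smallest p-values and Irf3, Ifnb1, Mavs, Psmb9, Jak1, Tyk2, Ifnar1, Ifnar2 and Dhx58; 2 further names of that rule were not analysed here. Markers of duct, immune, fibroblast, endothelial and acinar cells were read. Motif letters were searched on both strands.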

Additional observations from a re-analysis of the deposited data

How the results depend on the processing

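The count of members past the threshold was 0 in the fit without the block. It was 4 with the replicate block (4.67% of all genes passed), 4 with the block at an adjusted p under 0.1 (9.66%; added once the data had been seen), 3 at an adjusted p under 0.1 (3.80%), 2 with probe sets of a gene averaged (Trim25 and Irgm1; 2.52%), and 1 among brighter probe sets alone (Psmb8; 2.81%), where 8 members were fitted and Usp18 and Ifit1 were filtered out. It stayed 0 with median centring (1.08%), quantile normalisation again (1.35%), trend and robust variance (1.45%), array weights (1.86%), and without _x_at and _s_at probe sets (0.994%). With each array left out it was 0 too, but there 0 to 117 of all genes passed, so that count says little about the members. With the replicate block and both arrays of a number left out it was 0 to 2 (0 to 966 of all genes).

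In the fit without the block the pathway count was 1 of 113 (1.15% of all genes passed). It became 5 with the replicate block (4.67%), 13 with the block at an adjusted p under 0.1 (9.66%) and 4 at an adjusted p under 0.1 (3.80%). It was 3 with the mean of probe sets (2.52%) and 2 without _x_at and _s_at probe sets (0.994%). With an array left out it was 0 to 1 (0 to 117 of all genes). With the block and a replicate number left out it was 0 to 7 (0 to 966 of all genes).

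Over up to 14 alternatives the log2 fold change of Trim25 ranged from 0.45 to 0.57, Irgm1 from 0.47 to 0.59, Usp18 from 0.50 to 0.74 and Psmb8 from -0.65 to -0.30. Irf7 ranged from -0.44 to -0.094, Irf9 from -0.35 to -0.017, Stat2 from -0.41 to -0.061 and Ifih1 from 0.28 to 0.40. Ifit1 turned to 0.0031 with array weights and to 0.051 without shControl replicate 3, and Ddx58 to -0.023 without shAtoh8 replicate 3; with an array left out they ranged from -0.13 to 0.051 and from -0.023 to 0.22. The causes were not tested. Dim signal limits Ifit1 and Usp18.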

Other observations

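Iigp1, an interferon-inducible GTPase of the same family as Irgm1, was singled out after its values were seen. Its log2 signal in replicates 1, 2 and 3 was 7.86, 7.52 and 6.60 with shControl and 9.05, 7.92 and 8.12 with shAtoh8. The groups did not overlap, and the log2 fold change of 1.04 ± 0.38 (SE) did not pass limma (adjusted p = 0.286, and 0.0553 with the block). Its relatives Igtp (-0.14 ± 0.11; 0.699) and Irgm2 (0.08 ± 0.10; 0.827) were read by probe sets whose groups overlapped.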
